A study of Mus musculus with 8 samples.

Results

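Of the nuclear protein-coding genes of the mouse, 100 carry a symbol of the mitochondrial respiratory chain, and the reproducible binding sites of SMC1 around these genes were examined in cultured cortical neurons. Genes were taken by symbol from the RefSeq annotation of GRCm38.p6, as every name starting with Nduf, Sdh followed by a to d, Uqcr, Atp5, or Cox followed by 4 to 8, which gave 100 of 21883 nuclear protein-coding genes. The prefixes also took in 12 assembly factors, named Ndufaf and Sdhaf, which build the complexes without staying in them, and 19 pseudogenes with such names were left out. A gene was counted as having a peak when a peak lay within 10 kb of its annotated body.

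SMC1 belongs to the core of cohesin, a ring-shaped complex that holds and extrudes loops of chromatin, and was mapped by chromatin immunoprecipitation and sequencing (ChIP-seq). Wild-type cortical neurons were taken from Swiss-Webster mice at embryonic day 16 and were used on day 13 in vitro. Resting cultures had no treatment, and stimulated cultures were bathed in 50 µM NMDA, an agonist of a class of glutamate receptor, for 10 min and then kept 50 min in medium without drug. Each of the 2 conditions had 2 ChIP and 2 input samples and yielded 1 list of peaks, each called in both of its ChIP replicates. The growth text also describes etoposide, which the treatment label of no sample names. Nothing in the labels says whether the 2 cultures of a condition came from separate litters, and peak lists hold no expression values with which the cell type could be checked.

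Resting neurons gave 12359 listed peaks and NMDA-treated neurons 1684. The strength of a peak is given as the sum of the authors' −log10 p of both replicates, a quantity that grows with sequencing depth as well as with enrichment. Depth is unknown from the lists, so strengths were ranked within a list, and a resting strength beside an NMDA strength shows no change in binding. One list per condition allows no test between conditions, and the counts below are descriptions of these lists.

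As background, the respiratory chain sits in the inner mitochondrial membrane. Complexes I and II pass electrons from NADH and succinate to ubiquinone, complex III passes them on to cytochrome c, and complex IV passes them to oxygen. The ATP synthase uses the resulting proton gradient to make ATP, on which neurons rely heavily to restore ion gradients after synaptic activity. Most of the subunits are encoded in the nucleus, at scattered sites, and many of these genes are known targets of the transcription factors NRF1 and GABPA, an ETS factor.

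Respiratory chain genes had SMC1 peaks about as often as other genes of their length. At rest 34 of 100 had a peak within 10 kb (34%, exact 95% interval 24.8 to 44.2%), against 38.2% of all protein-coding genes and 31.4% of genes of like length. After NMDA it was 6 of 100 (6.0%, 2.23 to 12.6%), against 8.94% of all genes and 7.12% of genes of like length. The members are short, from 471 to 106064 bp with a median of 7336.5 bp against 17170 bp for all protein-coding genes, and longer genes meet more peaks. For genes of like length, each member was given the share among non-members of its length bin, out of 20 bins of equal size. The intervals, which cover counting error over genes only, took in the like-length share in both lists, from which the members differed by 2.64 points at rest and −1.12 points after NMDA.

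Peaks of both lists lay near 4 of the 100, against 7.28% of all genes. These were 4 of the 34 members with a resting peak (11.8%, exact 95% interval 3.30 to 27.5%), while among all genes the ratio was 1592 of 8369. Another 2 genes had an NMDA peak only, which 1.66% of all genes had, and 64 had neither. The median strongest resting peak was 33.0 for the 34 genes and 32.1 for all genes with one. The genes nearest to the 10 kb limit at rest were Ndufb1, 9425 bp from its peak and counted, and Ndufaf8 and Uqcrc2, 10398 and 10403 bp away and not counted. For NMDA peaks they were Cox8b at 7932 bp and Cox6b1 at 16683 bp.

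**Figure D1:**
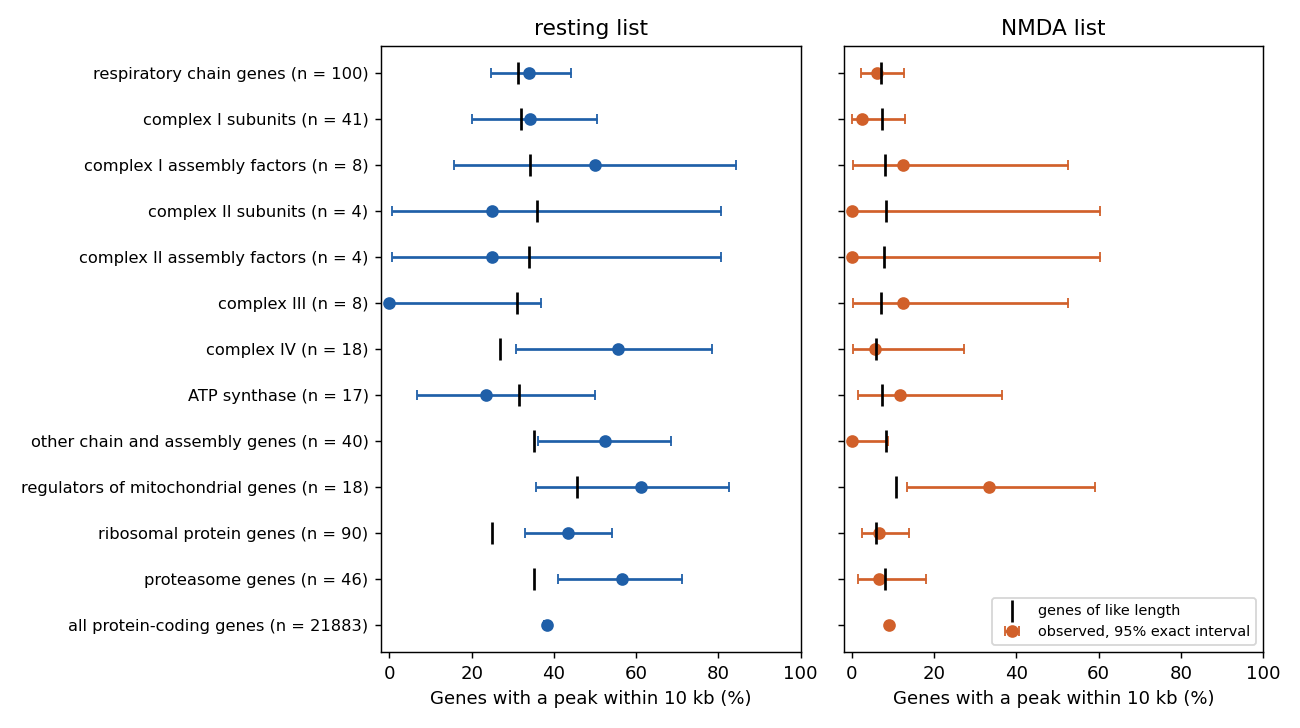
Percentage of genes with a resting (left) or NMDA (right) SMC1 peak within 10 kb, for the respiratory chain genes, their complexes and other gene lists, with exact 95% intervals that cover counting error only. Black bars give genes of like length; the 34% of all respiratory chain genes at rest lies beside 31.4%, while complex IV lies at 55.6% beside 26.9%.

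The 6 genes with an NMDA peak were Atp5d, Ndufaf4, Atp5c1, Cox8b, Uqcr11 and Ndufv1, from 5 of the 7 groups into which the genes were sorted. In 3 of them, Ndufaf4, Atp5c1 and Ndufv1, the peak lay over the start of the gene, and in the other 3 it lay outside the gene.

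Ndufaf4, an assembly factor of complex I, had the strongest peak at the start of any member. At rest the peak, on chromosome 4 from 24896526 to 24898642, had −log10 p values of 24.4 and 42.8 in the 2 replicate columns and a strength of 67.2, rank 842 of 12359. The NMDA peak at 24897679 to 24898374 lay within it, with 11.1 and 15.8 in the replicate columns and a strength of 26.9, rank 457 of 1684. The midpoint of the NMDA peak was 57 bp from the annotated start of the gene. A weaker resting peak (27.0), 2665 bp beyond the other end, had no NMDA partner.

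Ndufv1 encodes the subunit of complex I that binds NADH. At rest its peak on chromosome 19, from 4012550 to 4013297, had 12.5 and 24.7 in the replicate columns (strength 37.2). The NMDA peak at 4012475 to 4013031 had 12.8 and 7.28 (strength 20.1, rank 1345), and its midpoint lay 2 bp from the annotated end at which transcription starts. Atp5c1, the gene of the gamma subunit that turns as the central stalk of ATP synthase, had an NMDA peak and no resting peak. It lay on chromosome 2 at 10079976 to 10080803, with 15.1 and 8.42 in the replicate columns and a strength of 23.5, rank 783. The neighbouring gene Kin, which encodes a DNA- and RNA-binding protein, also has an end within 1 kb of that peak's midpoint, so the peak cannot be given to 1 of the 2 genes.

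The promoter windows of these 3 genes, and of 3 further subunit genes, those with the strongest resting peak over the window among subunit genes without an NMDA peak there, are shown because they are the sequences over which SMC1 was found. RefSeq windows of GRCm38.p6 run from 250 bases before to 50 after a transcript's start, are written 5′ to 3′ on the strand of the gene, and carry capitals where a searched motif matched. The motifs, on either strand and free to overlap, were an ETS site (CCGGAAG), YY1 (AANATGGCG), SP1 (GGGCGG), a 10-base pattern of NRF1 with 1 free base and a 12-base pattern of CTCF with 4 free bases.
Ndufaf4 (chr4:24897833-24898132, plus strand): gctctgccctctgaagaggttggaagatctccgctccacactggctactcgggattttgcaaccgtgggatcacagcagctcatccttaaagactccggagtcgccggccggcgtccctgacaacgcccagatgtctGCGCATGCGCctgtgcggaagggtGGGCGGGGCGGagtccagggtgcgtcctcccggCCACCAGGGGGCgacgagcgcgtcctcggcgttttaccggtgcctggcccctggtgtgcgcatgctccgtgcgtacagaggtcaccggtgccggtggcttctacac
Atp5c1 (chr2:10080383-10080682, minus strand): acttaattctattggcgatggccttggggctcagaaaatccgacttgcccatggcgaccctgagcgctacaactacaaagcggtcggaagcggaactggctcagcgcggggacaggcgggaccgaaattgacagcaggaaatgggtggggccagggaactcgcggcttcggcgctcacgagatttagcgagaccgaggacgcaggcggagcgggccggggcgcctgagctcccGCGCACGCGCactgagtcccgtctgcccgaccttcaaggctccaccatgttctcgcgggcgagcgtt
Ndufv1 (chr19:4012706-4013005, minus strand): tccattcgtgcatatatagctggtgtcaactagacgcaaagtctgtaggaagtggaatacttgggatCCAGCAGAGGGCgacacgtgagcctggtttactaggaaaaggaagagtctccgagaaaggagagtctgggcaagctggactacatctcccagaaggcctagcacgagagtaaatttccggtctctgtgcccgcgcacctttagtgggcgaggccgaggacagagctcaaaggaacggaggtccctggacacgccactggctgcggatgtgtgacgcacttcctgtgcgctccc
Ndufa6 (chr15:82354242-82354541, minus strand): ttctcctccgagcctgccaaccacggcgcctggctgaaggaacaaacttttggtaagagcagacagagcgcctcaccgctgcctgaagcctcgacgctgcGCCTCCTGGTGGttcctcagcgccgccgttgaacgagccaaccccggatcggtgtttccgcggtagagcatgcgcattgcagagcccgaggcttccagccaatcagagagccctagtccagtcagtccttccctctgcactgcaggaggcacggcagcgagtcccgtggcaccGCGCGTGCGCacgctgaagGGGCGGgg
Atp5g2 (chr15:102670998-102671297, minus strand): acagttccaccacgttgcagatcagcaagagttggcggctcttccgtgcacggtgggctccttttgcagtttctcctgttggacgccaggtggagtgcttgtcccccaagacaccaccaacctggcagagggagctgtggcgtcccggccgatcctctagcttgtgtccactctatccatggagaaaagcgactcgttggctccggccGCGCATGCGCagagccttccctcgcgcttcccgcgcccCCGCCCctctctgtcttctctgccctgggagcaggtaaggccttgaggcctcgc
Ndufc1 (chr3:51408906-51409205, minus strand): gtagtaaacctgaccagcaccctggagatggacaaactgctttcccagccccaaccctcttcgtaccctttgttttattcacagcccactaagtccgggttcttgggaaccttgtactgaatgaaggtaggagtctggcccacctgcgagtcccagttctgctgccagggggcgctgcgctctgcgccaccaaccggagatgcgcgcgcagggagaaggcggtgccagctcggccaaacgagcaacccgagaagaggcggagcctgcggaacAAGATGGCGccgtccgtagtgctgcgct

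The Ndufaf4 window held 1 match to NRF1, 2 overlapping matches to SP1 and 1 to CTCF. Atp5c1 has 2 overlapping windows in RefSeq, of which the one shown held 1 NRF1 match and the other no match. In Ndufv1 the 1 match was to CTCF, Ndufa6 held 1 each of CTCF, NRF1 and SP1, Atp5g2 held 1 of NRF1 and 1 of SP1, and Ndufc1 held 1 of YY1.

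The peaks at the other 3 genes with an NMDA peak lay nearer to, or inside, other genes or stood away from annotated ends. Near Atp5d, which encodes the delta subunit of the ATP synthase stalk, the resting peak on chromosome 10 at 80148256 to 80149225 was the strongest of all 46 resting peaks near members (88.9, with 70.5 and 18.5 in the replicate columns, rank 319 of 12359). The NMDA peak over it, at 80147973 to 80149778, was also the strongest of the 6 (33.3, with 22.3 and 11.02, rank 168 of 1684). Both lay outside Atp5d, at 2428 and 2145 bp, and inside Midn, the gene of the nuclear protein midnolin. Cox8b, a subunit of complex IV known from heart and skeletal muscle, had a resting peak on chromosome 7 at 140908329 to 140909388 (52.1, with 25.2 and 26.9) and an NMDA peak over it at 140908378 to 140908927 (22.1, with 11.1 and 11.1). These lay 7883 and 7932 bp away. The same pair was within 10 kb of Psmd13, a proteasome subunit gene. Uqcr11, a small subunit of complex III, had an NMDA peak only, on chromosome 10 at 80398778 to 80399534 (21.2, with 13.1 and 8.03). It lay 3463 bp from Uqcr11 and 375 bp from an end of Mbd3, which encodes a subunit of a chromatin remodelling complex.

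**Figure D2:**
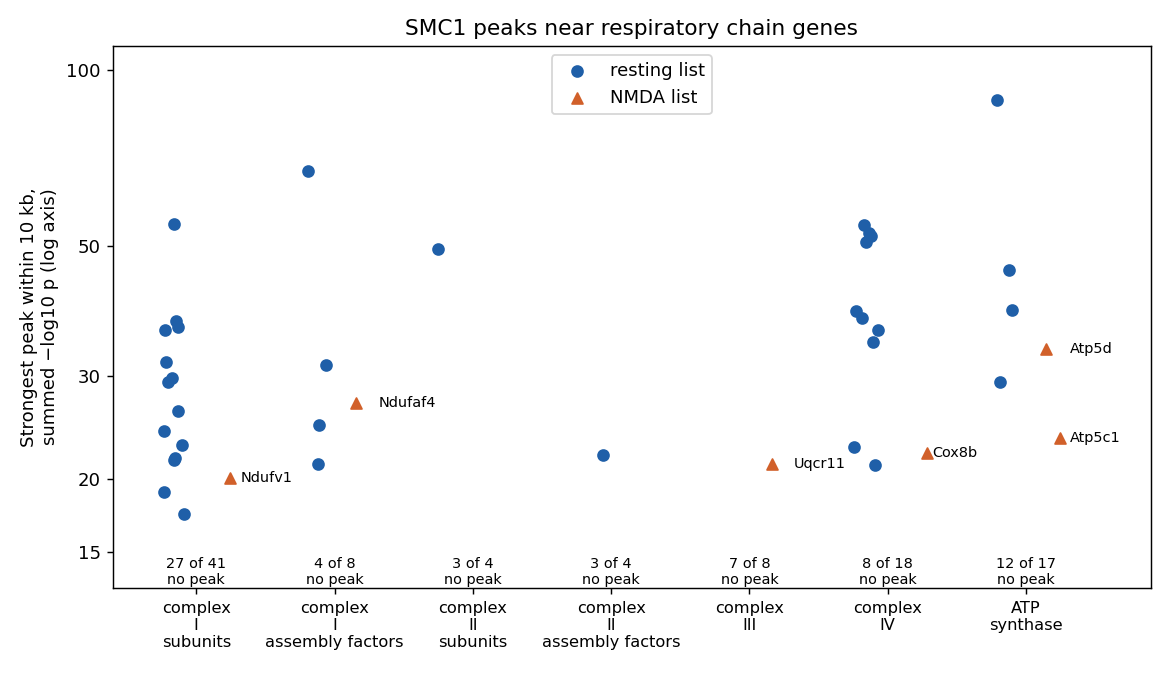
Strongest SMC1 peak within 10 kb of each respiratory chain gene, as the summed −log10 p on a log axis, by complex; circles are the resting list, triangles the NMDA list (named), and the count of genes without a peak stands below. Resting values reach from 17.4 at Ndufa2 to 88.9 at Atp5d, and scales of the 2 lists are not comparable.

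Complex I, the largest complex, takes electrons from NADH. Of its 41 genes named as subunits 14 had a resting peak (34.1%, exact 95% interval 20.1 to 50.6%) and 1 had an NMDA peak. Of genes of like length 32.1% had a resting peak and 7.24% an NMDA peak. Ndufa4 is counted here by its symbol, although its protein is known to associate with complex IV. The strongest was at Ndufa6, a subunit of the LYR family, on chromosome 15 at 82353994 to 82355186 (54.6, with 33.2 and 21.3 in the replicate columns), over its promoter window. Ndufv1 followed with 37.2. Ndufa4l2, a paralog of Ndufa4 induced by low oxygen, had a peak inside the gene on chromosome 10 at 127512569 to 127513307 (36.3). Ndufs1, the largest iron-sulfur subunit, had one on chromosome 1 at 63180989 to 63181388 (35.9), 4167 bp outside and 702 bp from an end of the translation elongation factor gene Eef1b2.

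The other 10 complex I subunit genes with a resting peak had strengths from 17.4 to 31.6. Ndufc1 (22.8) had its peak over the start, Ndufv3 (26.1) and Ndufa10 (18.98) had one inside the gene, and Ndufb6 (31.6), Ndufs7 (29.7), Ndufa13 (29.3), Ndufa5 (24.1), Ndufb1 (21.7), Ndufv2 (21.5) and Ndufa2 (17.4) only outside. No peak in either list lay near the other 27, among them Ndufa1, Ndufa3, Ndufa4, Ndufa7, Ndufa8, Ndufa9, Ndufa11, Ndufa12, Ndufab1, Ndufb2, Ndufb3, Ndufb4, Ndufb4b, Ndufb4c, Ndufb5, Ndufb7, Ndufb8, Ndufb9, Ndufb10, Ndufb11, Ndufc2, Ndufs3, Ndufs4, Ndufs5, Ndufs6 and Ndufs8. They include the core subunits Ndufs3 and Ndufs8, while the core subunits Ndufs1, Ndufs7, Ndufv1 and Ndufv2 had a peak. Ndufa1, on the X chromosome, was the member farthest from a resting peak, at 625 kb.

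Assembly factors of complex I had a resting peak in 4 of 8 cases (50.0%, 15.7 to 84.3%), against 34.3% for genes of like length. In 3 of the 4 a peak was at an end of the gene, against 10 of the 34 members and 3121 of the 8369 protein-coding genes with a resting peak. Beside Ndufaf4 the assembly factors with such a peak were Ndufaf6 (24.7), on chromosome 4 at 11075702 to 11076504, and Ndufaf5 (21.2), which hydroxylates an arginine of Ndufs7 during assembly, on chromosome 2 at 140170364 to 140171136. The Ndufaf5 peak also lay within 1 kb of an end of Esf1, a gene of ribosomal RNA processing. The peak near Ndufaf2 (31.3, chromosome 13 at 108043886 to 108044894) was 7695 bp outside and 84 bp from an end of Smim15. Ndufaf1, Ndufaf3, Ndufaf7 and Ndufaf8 had none.

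Complex II, which is also the succinate dehydrogenase of the citric acid cycle, had 1 of 4 subunit genes with a resting peak and none with an NMDA peak. Of genes with lengths like these subunits, 35.8% had a resting peak and 8.18% an NMDA peak. Sdhb, the iron-sulfur subunit, had a peak 3007 bp before the gene on chromosome 4 at 140957484 to 140958264 (49.5, with 31.1 and 18.3 in the replicate columns) and a second inside it (34.2). Sdha, Sdhc and Sdhd had none. Of the 4 assembly factors, Sdhaf2, which attaches FAD to Sdha, had a peak inside the gene on chromosome 19 at 10502550 to 10502981 (21.9), and Sdhaf1, Sdhaf3 and Sdhaf4 had none. Of genes with lengths like these assembly factors, 33.9% had a resting peak and 7.87% an NMDA peak, which none of the 4 had.

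None of the 8 complex III genes had a resting peak within 10 kb (exact 95% interval 0 to 36.9%), against 30.9% for genes of like length. The distance to the nearest resting peak ran from 10.4 kb at Uqcrc2, a core subunit, to 212 kb at Uqcr10. It was 38.1 kb at Uqcrfs1, the Rieske iron-sulfur protein, and 109 kb at Uqcrc1. The genes without any peak were Uqcr10, Uqcrb, Uqcrc1, Uqcrc2, Uqcrfs1, Uqcrh and Uqcrq.

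Complex IV, cytochrome c oxidase, had the highest share of genes with a resting peak among the 7 groups. An NMDA peak lay near 1 of 18 genes, against 5.89% for genes of like length. A resting peak lay near 10 of 18 (55.6%, exact 95% interval 30.8 to 78.5%), against 26.9% for genes of like length. The strongest lay 4024 bp outside Cox7b on the X chromosome at 106026474 to 106027451 (54.3, with 37.2 and 17.1 in the replicate columns), 262 bp from an end of the copper transporter gene Atp7a. Cox5b followed with 52.7 on chromosome 1 at 36684099 to 36684474, 7013 bp outside and 1096 bp from an end of Fam178b. A second peak of Cox5b lay over its own start (18.8). Cox8b had 52.1. Cox6a1 had 50.9 on chromosome 5 at 115358786 to 115359311, 9828 bp outside and 11 bp from an end of the RNA-binding protein gene Msi1, and a weaker one inside (21.4).

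Cox5a (35.9) had its peak at the annotated end of the gene, although its midpoint lay at −4111 bp from the start listed with the promoter window. Cox7b2 (38.8) had one inside, and Cox4i1 (37.6), Cox7a1 (34.3), Cox6b1 (22.7) and Cox6a2 (21.1) outside. Of the 10 genes, then, 4 had a peak overlapping the gene and 6 only outside. Cox4i2, Cox6b2, Cox6c, Cox7a2, Cox7a2l, Cox7c, Cox8a and Cox8c had none. With only peaks to which no other protein-coding gene was nearer, 8 of 18 remained against 18.6% for genes of like length, and with peaks overlapping the gene 4 of 18 against 13.5%. The interval of the main count lay above the like-length share, but complex IV is the highest of 7 small groups, and no test between them was made. Neighbouring genes were not matched for single complexes.

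The ATP synthase had a resting peak near 4 of 17 genes (23.5%, 6.81 to 49.9%), against 31.5% for genes of like length. An NMDA peak lay near 2 of 17, against 7.28% for genes of like length. After Atp5d came Atp5g2, a gene of the membrane ring subunit c, with a peak over its start on chromosome 15 at 102670703 to 102671441 (45.5, with 31.4 and 14.1 in the replicate columns) and a weaker one inside (17.9). Atp5o, the stalk protein that confers oligomycin sensitivity, had peaks 4484 and 3534 bp outside (38.8 and 20.5), the former on chromosome 16 at 91936114 to 91937136. Atp5mpl had one 2917 bp outside on chromosome 12 at 111958068 to 111958457 (29.3) and one at its end (19.3). The genes without a peak were Atp5a1 and Atp5b, which form the catalytic head, and Atp5e, Atp5g1, Atp5g3, Atp5h, Atp5j, Atp5j2, Atp5k, Atp5l, Atp5md and Atp5pb.

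Most peaks counted for the members were beside the genes and not on them. Among the 34 members with a resting peak, 17 had one overlapping the body. Of genes of like length 15.7% had a resting peak overlapping the body and 31.4% one within 10 kb, near the 17% and 34% of the members. Of the 46 resting peaks, each near 1 member only, 10 had a midpoint within 1 kb of an end of the member (21.7%, exact 95% interval 10.9 to 36.4%), 9 lay elsewhere in its body and 27 outside. Of the 27 outside peaks 13 were nearer to an end of another protein-coding gene, and 8 within 1 kb of one. Among the 9208 resting peaks within 10 kb of any protein-coding gene, 31.6% were within 1 kb of a gene end. For the members' 46 peaks the share at an end of any protein-coding gene was 39.1%. By gene, 10 of 100 members had a resting peak at their own end, against 14.3% of all protein-coding genes and 12.1% of genes of like length, and 3 of 100 an NMDA peak there, against 4.82% and 3.98%. The members lie in dense surroundings: 87 of 100 had another protein-coding gene within 10 kb, against 61.9% of all and 65.9% of genes of like length. When this class of neighbour was matched together with length, the resting difference turned from 2.64 to −0.20 points.

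**Figure D3:**
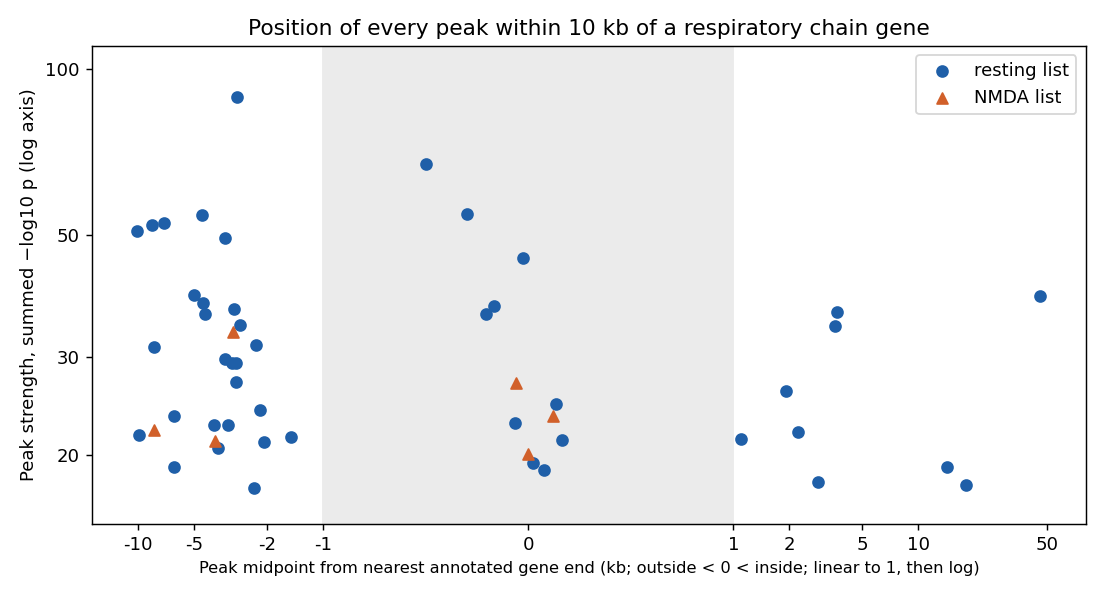
Every SMC1 peak within 10 kb of a respiratory chain gene by the distance of its midpoint from the nearest annotated end of that gene (kb, outside negative and inside positive, linear up to 1 kb and logarithmic beyond) and its strength (log axis). The shaded band marks 1 kb on either side of an end, which holds 10 of 46 resting peaks and 3 of 6 NMDA peaks.

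An NMDA peak overlapped 4 of the 46 resting peaks (8.70%, exact 95% interval 2.42 to 20.8%), against 12.6% of resting peaks near any protein-coding gene. Of the 6 NMDA peaks 4 overlapped a resting peak, against 74.3% of NMDA peaks near protein-coding genes. The resting peaks of the members had a median strength of 29.3 and a median width of 589 bp, against 29.5 and 669 bp near all protein-coding genes.

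Promoter windows were listed for 82 of the 100 genes. For peaks and for motifs a gene was counted if any of its windows was met. The 82 members had 87 windows and the 17491 genes with windows had 21262, so all genes had more windows each. A resting peak overlapped the window of 7 of the 82 (8.54%), against 12.7% of 17491 genes with windows, and an NMDA peak that of 3 (3.66%), against 5.00%. The 7 were Atp5g2, Cox5b, Ndufa6, Ndufaf4, Ndufaf5, Ndufc1 and Ndufv1, and with Atp5c1 there were 8 genes with a peak of either list.

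The sequences of these windows were richer in some motifs than those of other genes. A match to NRF1 was found in 21 of 82 genes (25.6%), against 7.17% of all genes with windows, to the ETS site in 22 (26.8%) against 12.9%, and to YY1 in 12 (14.6%) against 3.64%. SP1 matched in 39 (47.6%) against 49.2%, and CTCF in 5 (6.10%) against 2.75%. The windows had a median GC content of 58.7%, against 56.3%. These are counts of letters in a 300-base window and do not show that a factor was bound.

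Among the 8 members with a peak over the window, 3 held a CTCF match (Ndufa6, Ndufaf4 and Ndufv1), 5 an NRF1 match (Atp5c1, Atp5g2, Ndufa6, Ndufaf4 and Ndufaf5) and none an ETS match. Among the other 74 it was 2 with CTCF (Ndufb6 and Uqcrc1), 16 with NRF1 and 22 with ETS. For all genes the CTCF match was in 5.63% of 2556 with a peak over the window and 2.26% of 14935 without. The NRF1 match was in 14.7% and 5.87%, and the ETS match in 18.2% and 12.05%, the opposite order to the 0 of 8 and 22 of 74 members. The SP1 match was in 78.0% and 44.3% of all genes and in 3 of 8 (37.5%) and 36 of 74 (48.6%) of the members, and YY1 in 5.48% and 3.33% of all genes and in 1 of 8 and 11 of 74 of the members. With 8 members under a peak, these differences from all genes were not tested. The 3 members with a CTCF match and a peak had resting strengths of 67.2, 54.6 and 37.2 there. Those with a resting peak over the window and no CTCF match were Atp5g2 (45.5), Ndufc1 (22.8), Ndufaf5 (21.2) and Cox5b (18.8). A match required every fixed base of the pattern, so sequences close to it, which a CTCF site can have, were not counted.

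Members were also found close to each other. Atp5d, Ndufs7 and Uqcr11 lie in 268 kb of chromosome 10, separated by 103 and 146 kb, among 20 protein-coding genes. This stretch held 9 resting peaks and 2 NMDA peaks, and each of the 3 genes had a peak within 10 kb, none of them overlapping the gene. The resting peak near Ndufs7, which encodes an iron-sulfur subunit of complex I, was at 80245440 to 80246004 (29.7), 578 bp from an end of Pwwp3a. The second strongest resting peak of the stretch (88.4) had no NMDA peak and lay beside Cirbp, the gene of a cold-inducible RNA-binding protein. On chromosome 7, Cox7a1 and Sdhaf1 were 135 kb apart, and on chromosome 19, Ndufs8 and Ndufv1 94.7 kb.

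**Figure D4:**
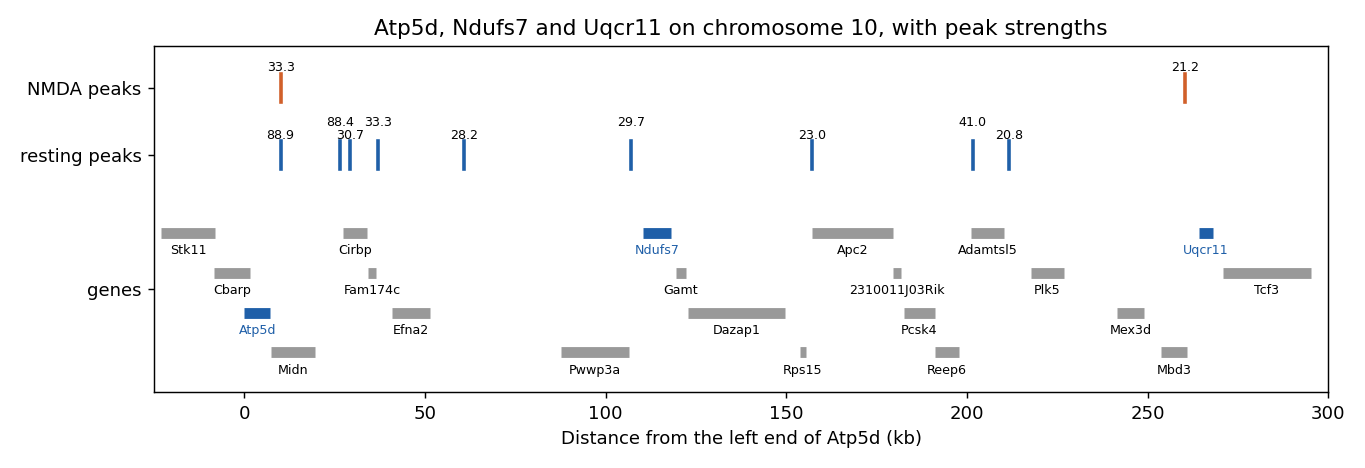
Protein-coding genes (bars, respiratory chain genes in blue) and SMC1 peaks with their strengths around Atp5d, Ndufs7 and Uqcr11 on chromosome 10, by distance in kb from the left end of Atp5d. Resting and NMDA peaks coincide beside Atp5d (88.9 and 33.3), while the NMDA peak beside Uqcr11 (21.2) has no resting peak with it.

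Other genes of the pathway were taken from 2 lists. Of 40 further chain and assembly genes, among them the cytochrome c genes and the Cox10 to Cox20 factors, 21 had a resting peak (52.5%, exact 95% interval 36.1 to 68.5%), against 35.1% for genes of like length, and none had an NMDA peak (0 to 8.81%), against 8.17%. The strongest were near Ttc19 (59.7), a complex III factor, Fastkd2 (56.2), a mitochondrial RNA-binding protein gene, Cox16 (52.5) and Acad9 (47.7), a complex I factor. Of 18 genes for regulators of mitochondrial genes, 11 had a resting peak (61.1%, 35.7 to 82.7%), against 45.6%, and 6 an NMDA peak (33.3%, 13.3 to 59.0%), against 10.7%.

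The regulators with NMDA peaks were Ppard, Ppargc1a, Tfb2m, Polg, Yy1 and Gabpb1. Ppargc1a encodes the coactivator PGC-1α, which drives mitochondrial biogenesis. It had a resting peak 196 bp from an end of the gene (45.4, chromosome 5 at 52115737 to 52116361) and an NMDA peak elsewhere in the gene (23.4, at 51551902 to 51552891). Tfb2m, a mitochondrial transcription factor gene, had peaks at its end in both lists (27.1 and 21.3). Ppard, a nuclear receptor gene, had 62.5 at rest and an NMDA peak at another position, 219 bp from an end (23.2), and Polg, the mitochondrial DNA polymerase gene, had 20.3 and 21.0. Yy1 (36.5) and Gabpb1 (26.6), the partner of GABPA, had NMDA peaks only. Among regulators with a resting peak only, Ppargc1b had 56.4 and Tfb1m 37.9.

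Genes with symbols of ribosomal proteins and of the proteasome, families of short, widely expressed genes, were set beside the members. The symbols also took in genes named for partners or paralogs of these proteins. Among them were Psmc3ip, Psme3ip1, Rps19bp1 and Rpl3l, each counted with a resting peak. Of 90 genes with a ribosomal protein symbol 39 had a resting peak (43.3%, 32.9 to 54.2%), against 25.01% for genes of like length, and 6 an NMDA peak (6.67%, against 5.74%). Of 46 with a proteasome symbol 26 had a resting peak (56.5%, 41.1 to 71.1%), against 35.2%, and 3 an NMDA peak (6.52%, against 8.14%). The strongest resting peaks were near Rpl29 (85.9), Rps13 (78.1), Rpl22 (67.4) and Rps24 (67.0), and near Psmd12 (72.2), Psmb7 (56.3), Psme3ip1 (53.5) and Psmd13 (52.1). Neighbouring genes were not matched for these families or for the lists of other pathway genes. The differences between these families and the respiratory chain genes were not tested.

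The distance allowed changed the counts of members and of other genes together. A resting peak overlapped the body of 17 members, against 25.4% of all genes and 15.7% of genes of like length. Within 5 kb there were 32 members, against 24.8% of genes of like length, and within 50 kb 65, against 59.5%. For NMDA peaks the counts were 3 overlapping (6.57% of all genes, 4.61% of like length), 5 within 5 kb (5.96% of like length) and 18 within 50 kb (15.8% of like length). The median distance from a member to the nearest peak was 26.0 kb at rest and 353 kb after NMDA, against 24.2 and 343 kb for all protein-coding genes. For non-members weighted to the members' length bins the median was 31.7 kb at rest and 331 kb after NMDA, and the mean of the medians of these bins was 46.3 and 362 kb. At rest the members' median was thus below the weighted median and slightly above that of all genes, and the quartiles of the members were 2.77 and 70.0 kb. The mean of bin medians is a different quantity from a median over genes and is not directly comparable with it. Neighbouring genes were not matched for these distances, and the differences were not tested.

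**Figure D5:**
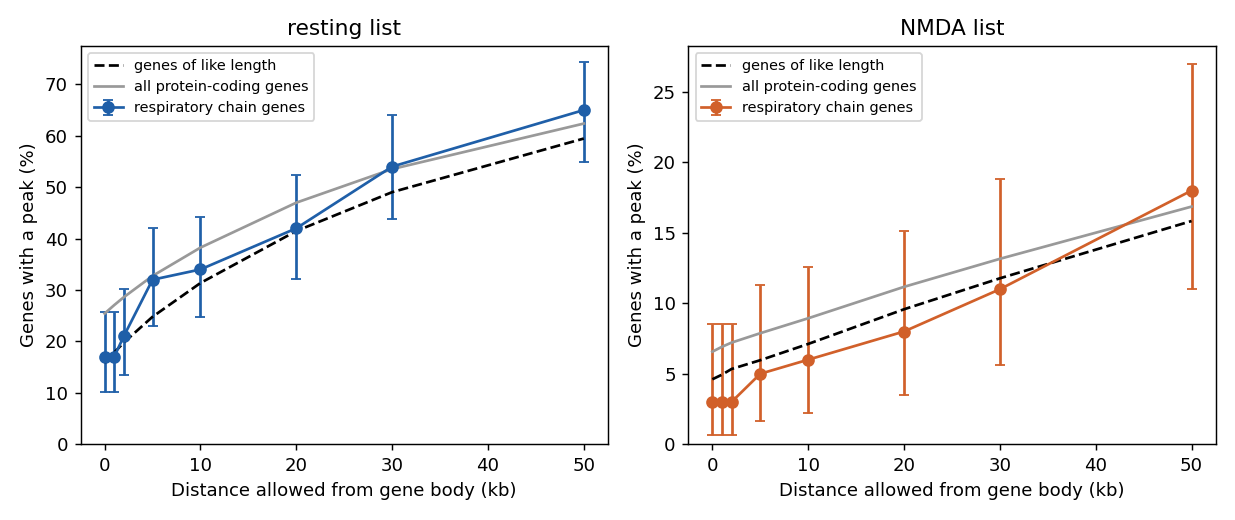
Percentage of genes with a resting (left) or NMDA (right) SMC1 peak by the distance allowed from the gene body (kb), for respiratory chain genes (points, exact 95% intervals), genes of like length (dashed) and all protein-coding genes (grey). The dashed values lie inside every interval; at 50 kb the members reach 65% and 18%.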

How the data were processed

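The authors deposited 1 peak list per condition, in the 20-column layout of the irreproducible discovery rate (IDR) tool, without a header. Per the submitters' processing notes, the tools were MACS2, BWA, Trimmomatic, SAMtools and FastQC, with no version or setting given, and the genome build was mm10 or GRCm38.p6. The deposited lists give a −log10 p for each of 2 replicates, their sum, used here as strength, and a −log10 IDR, with no IDR above 0.05. Input libraries were not analysed here.

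Gene bodies and promoter windows came from RefSeq tables of GRCm38.p6. Members and lists were chosen with earlier results of these data known. All members with an NMDA peak, and of each complex the 4 genes with the strongest resting peak, are given with the position of that peak. The windows printed for Ndufa6, Atp5g2 and Ndufc1, and the count of complex IV under other settings, were chosen after values were seen. Intervals are exact Clopper-Pearson 95% intervals from SciPy 1.17.1 in Python 3.11.15. Alternatives changed the distance, the IDR limit, the members, the peak assignment and the length matching. In simulated data the length matching recovered differences planted in genes drawn at random. Such genes are not shorter than the others, so the simulation could not show that a length bias is removed. One member is counted but not reported by name here.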

Additional observations from a re-analysis of the deposited data

How the results depend on the processing

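The share of members with a resting peak, 34% within 10 kb, was 21.0% within 2 kb, 65.0% within 50 kb, 17% with overlap of the gene body, 21.0% at an IDR up to 0.01 and 23.0% with only peaks nearest to the member. The share of genes of like length moved too, from 31.4% within 10 kb to 59.5% within 50 kb and 15.7% with overlap. Within 2 kb, at an IDR up to 0.01 and with nearest peaks only, members exceeded genes of like length by at most 2.77 points. The share with an NMDA peak, 6.0%, was 18% within 50 kb and 1.0% at an IDR up to 0.01. Of genes of like length 7.12% had an NMDA peak within 10 kb and 15.8% within 50 kb. At an IDR up to 0.01 the NMDA difference from genes of like length was smaller in size than the −1.12 points of the main setting, with the same sign. The difference from genes of like length changed sign for NMDA within 50 kb (2.16 points) and at rest when neighbouring genes were matched too (−0.20 points). Complex I subunits with a resting peak, 14, numbered 9 within 2 kb, 28 within 50 kb, 6 by overlap, 7 at the stricter IDR and 7 by nearest gene. In the same order, the share of genes of like length would give 13.1, 8.21, 24.9, 6.48, 7.60 and 8.92. Those of complex IV, 10, numbered 5 within 2 kb and 4 by overlap, where genes of like length would give 4.84, 3.04 and 2.42. The other 37 values stayed within their intervals or within 1.5 times the count. Leaving out a replicate was not possible, since a listed peak was found in both. No paired analysis was possible because the results come from no test between conditions. Depth is unknown, so a gene without a listed peak may hold SMC1 below the limit of detection.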

Other observations

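Several complex IV subunits have a widely expressed form and a form known from muscle, lung or testis, and peaks were found near both kinds. Of the 6 widely expressed forms with such a partner, 4 had a resting peak within 10 kb, near Cox7b (54.3), Cox6a1 (50.9), Cox4i1 (37.6) and Cox6b1 (22.7), and Cox7a2 and Cox8a had none. Of the 7 tissue-restricted forms, 4 had one, near Cox8b (52.1), Cox7b2 (38.8), Cox7a1 (34.3) and Cox6a2 (21.1), and Cox4i2, Cox6b2 and Cox8c had none. Only the peak given for Cox7b2 lay inside its gene. The peaks given for Cox7b, Cox6a1 and Cox6b1 had midpoints within 1 kb of an end of Atp7a, Msi1 and Upk1a. The restricted forms are short, with a median of 1505 bp against 6368 bp, and 20.4% and 31.7% of genes of like length had a resting peak. The 1 NMDA peak was near a restricted form, Cox8b. Of genes of like length as the restricted and the widely expressed forms, 4.44% and 7.16% had an NMDA peak. The difference between the 2 kinds was not tested.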
